A study of Mus musculus with 6 samples.

Results

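Small RNA libraries made from mouse serum with the TailorMix kit were compared with those made with the TruSeq kit. These were 4 of the 6 libraries of the series, 2 for each kit, and they were chosen by the library preparation kit that the labels give. The mice were healthy male and female 129/SVj animals aged 2 to 9 months, without a treatment or a genetic change, and blood was taken by cardiac puncture after sedation with tribromoethanol. Serum was cleared by a pair of centrifugation steps, RNA was isolated with the miRNeasy serum/plasma kit (Qiagen) and every library was selected for a size of 125 to 153 bp. The groups therefore differed by label only in the kit, which was version 2 of the TailorMix miRNA sample preparation kit (Seqmatic) or version 2 of the TruSeq small RNA kit (Illumina). Serum came from individual mice, and the labels number the serum 1 and 2 within each kit. The sources do not say whether a number marks the same serum in both kits, nor which mouse, sex or age stands behind each library, so kit and mouse cannot be told apart. The p-values below measure the spread between replicate libraries, which may be technical. Except in the permutation tests, this spread was estimated from all 6 libraries of the series, including those of the NEBNext kit, unless said otherwise.

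Both kits join an adaptor to each end of a small RNA, copy the product into cDNA and amplify it, so that a read reports an RNA together with its passage through these steps. microRNAs (miRNAs) are short RNAs that guide Argonaute proteins to messenger RNAs and circulate in serum in vesicles and protein complexes. Transfer RNAs (tRNAs) carry amino acids to the ribosome, and cleavage in the anticodon loop gives stable 5′ fragments that are known to be abundant in serum. Ribosomal 5S RNA, the small nuclear RNAs (snRNAs) of the spliceosome and the small nucleolar RNAs (snoRNAs) that guide modification of other RNAs are structural RNAs of cells, while piRNAs are best known from the germ line.

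The lists give the annotated gene or miRBase identifier of each read and number the distinct sequences. The sequences of the RNAs behind the comparisons below are therefore those of RefSeq and GENCODE M21 on GRCm38. miR-16-5p, the miRNA that could be named, is encoded at Mir16-2 (chr3:69009918-69009939, plus strand) and Mir16-1 (chr14:61631936-61631957, minus strand), both giving the mature RNA below, with its seed (bases 2 to 8) in capitals. U1 snRNA (Rnu1b1, chr3:96359953-96360117, minus strand) and the snoRNA Rnu73b (chr3:86140618-86140688, minus strand) stand for RNAs with a larger share of the reads in TailorMix. Snord96a (chr11:48802032-48802112, plus strand) stands for those with a larger share in TruSeq. Snord104 (chr11:106500993-106501062, plus strand) was the snoRNA with most reads over both kits together, although not in the TailorMix libraries.
miR-16-5p: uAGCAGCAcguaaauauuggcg
Rnu1b1: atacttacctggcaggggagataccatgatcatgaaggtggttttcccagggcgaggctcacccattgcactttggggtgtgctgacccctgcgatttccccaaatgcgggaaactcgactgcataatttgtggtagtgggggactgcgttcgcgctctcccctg
Rnu73b: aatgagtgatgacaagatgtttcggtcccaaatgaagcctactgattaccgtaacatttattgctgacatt
Snord96a: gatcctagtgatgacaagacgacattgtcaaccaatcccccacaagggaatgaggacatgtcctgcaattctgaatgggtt
Snord104: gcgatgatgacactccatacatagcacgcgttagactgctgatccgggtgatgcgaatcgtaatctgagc

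Annotated reads, which are the reads listed for a miRNA, tRNA, rRNA, snRNA, snoRNA or piRNA, numbered 5144833 and 5300732 in the TailorMix libraries and 11620980 and 9417070 in the TruSeq libraries. Of these, 193468 and 196895 were miRNA reads with TailorMix and 351758 and 282076 with TruSeq. At these depths the counting error of a share was small, with a 95% Wilson interval of at most 0.0180 percentage points on each side for tRNA and 0.0164 for miRNAs. Replicate libraries differed by more than counting error and were treated as separate samples. Their miRNA counts gave a chi-square of 1.59 (TailorMix) and 15 (TruSeq) for each degree of freedom. Their counts by tRNA type gave 106 (TailorMix) and 5217 (TruSeq).

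As a share of annotated reads, every RNA class other than tRNA was larger in the TailorMix libraries. miRNAs took 3.76% and 3.71% of annotated reads with TailorMix and 3.03% and 3.00% with TruSeq, a ratio of the means of 1.24. Structural RNAs differed far more. rRNA took 0.182% and 0.184% against 0.0287% and 0.0357%, a ratio of 5.69. snRNA took 0.0916% and 0.0898% against 0.00827% and 0.00996%, a ratio of 9.95, and snoRNA 0.0362% and 0.0361% against 0.0171% and 0.0165%, a ratio of 2.15. Reads annotated as piRNA took 0.468% and 0.435% against 0.0897% and 0.0987%, a ratio of 4.8. tRNA made up 95.5% of the annotated reads in both TailorMix libraries and 96.8% in both TruSeq libraries. Annotated reads leave out mapped reads outside the 6 classes. As a share of mapped reads, the paper reported more tRNA, and also more miRNA, for TailorMix than for TruSeq. The order of the kits for tRNA therefore depended on the total used. In none of the 6 classes did the libraries of the kits overlap, and the exact permutation test (two-sided) gave p = 0.333 for each class, which is the smallest p that 6 arrangements of 4 libraries allow. Shares add up to the whole, serum RNA comes from many cells, and each read has passed through the steps of its kit. The kit's steps, more source cells, more RNA released by each cell and a lower share of other RNAs cannot be told apart.

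**Figure D1:**
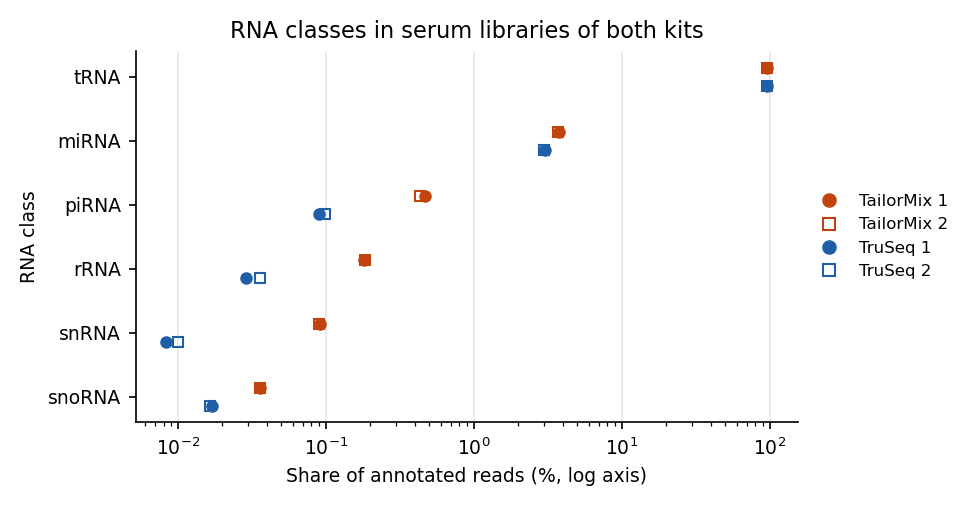
Share of annotated reads on each RNA class (x axis, %, log scale) in each of the 4 libraries, with TailorMix in red, TruSeq in blue, filled circles for replicate 1 and open squares for replicate 2. The gap between the kits is widest for snRNA (0.0907% against 0.00912% in the mean) and barely visible for tRNA (95.5% against 96.8%).

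The minor classes also differed in how their reads were spread over distinct sequences. With TruSeq, a single sequence held 49.7% and 58.6% of all rRNA reads, whereas the leading sequence held 3.83% and 3.91% with TailorMix. When all libraries were set to the 3334 rRNA reads of the smallest, the expected number of distinct rRNA sequences was 503 in both TailorMix libraries and 429 and 385 in the TruSeq libraries. For piRNA at 9290 reads it was 3946 and 3993 against 1784 and 1666, and for snRNA at 938 reads it was 367 and 373 against 258 and 256. snoRNA at 1555 reads showed no such separation, with 393 and 440 sequences in TailorMix and 412 and 422 in TruSeq.

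The composition of the tRNA reads differed widely between the kits. tRNA-Glu and tRNA-Gly together made up 91.3% of tRNA reads in both TailorMix libraries, and 45.1% and 40.3% in the TruSeq libraries. tRNA-Val and tRNA-His together took 5.53% and 5.6% with TailorMix, and 50.9% and 55.4% with TruSeq. The ratio of Val to Glu reads was 0.0840 and 0.0856 with TailorMix and 1.05 and 1.49 with TruSeq, and that of His to Asp reads was 0.705 and 0.80 against 287 and 333. The libraries of the kits did not overlap in either ratio.

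In edgeR's quasi-likelihood test on the share of tRNA reads, 12 of the 21 tRNA types (57.1%) were higher in TailorMix and 7 (33.3%) were lower, at an adjusted p under 0.05. A log2 fold change here is TailorMix over TruSeq, and its standard error (SE) was taken as its size divided by the square root of the test's F. The type with the largest rise was tRNA-Asp, at 1.78% and 1.69% of tRNA reads with TailorMix and 0.0642% and 0.0543% with TruSeq (log2 fold change 4.87, SE 0.17). tRNA-Met, which includes the initiator of translation, took 0.378% and 0.390% against 0.0229% and 0.0218% (4.10, SE 0.18). Both were scarce in TruSeq, so that the rises of the largest fold lay outside the abundant types.

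Among the abundant types, tRNA-Gly took 40.4% and 41.6% with TailorMix and 14.2% and 15.3% with TruSeq (log2 fold change 1.48, SE 0.11). tRNA-Glu took 51.0% and 49.7% against 30.9% and 25.0% (0.85, SE 0.10), which was 0.27 and no longer called with DESeq2 (adjusted p = 0.0592). The other types called higher were Cys (2.55), Ser (2.06), Ala (1.78), Thr (1.33), Phe (1.23), SeC (1.13, the selenocysteine tRNA), Asn (1.05) and Leu (0.55, but -0.03 with DESeq2), each with less than 0.3% of tRNA reads in every library. With DESeq2, Asn (adjusted p = 0.0880), SeC (0.110) and Phe (0.256) were not called either. Leu and Phe also depended on single libraries. For Leu the adjusted p in edgeR was 0.00164 with all libraries, 0.0707 without TruSeq replicate 2 and 0.0771 without TailorMix replicate 1, and for Phe 0.00213 with all and 0.0892 without TailorMix replicate 2.

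The fall was steepest for tRNA-His, at 1.25% and 1.35% of tRNA reads with TailorMix and 18.5% and 18.1% with TruSeq (log2 fold change -3.81, SE 0.13). tRNA-Lys took 0.223% and 0.215% against 2.81% and 3.21% (-3.78, SE 0.15). tRNA-Gln took 0.0315% and 0.0320% against 0.299% and 0.303% (-3.25, SE 0.17). These falls were of like size although the types differ in abundance by well over 10-fold in TruSeq.

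tRNA-Val, the most abundant type of the TruSeq libraries at 32.5% and 37.3%, took 4.28% and 4.26% with TailorMix (log2 fold change -3.03, SE 0.12). Arg (-1.89), Ile (-0.88) and Pro (-0.42) were also lower in TailorMix. For Pro the adjusted p in edgeR was 0.00817 with all libraries, 0.161 without TailorMix replicate 1 and 0.0852 without TailorMix replicate 2. Trp (-0.28) and Tyr (0.33) did not pass the test (adjusted p = 0.222 for both), but Trp was called lower with DESeq2 (-0.87, adjusted p = 0.00135). Without exception among the 21 types, both libraries of one kit lay above both of the other, so that even Trp and Tyr did not overlap. Of the calls, 63.2% were in the direction of TailorMix, as they were with TMM scaling, against 46.7% with DESeq2, whose size factors moved the log2 fold changes by -0.59 and turned the sign of Tyr (-0.26) as well.

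**Figure D2:**
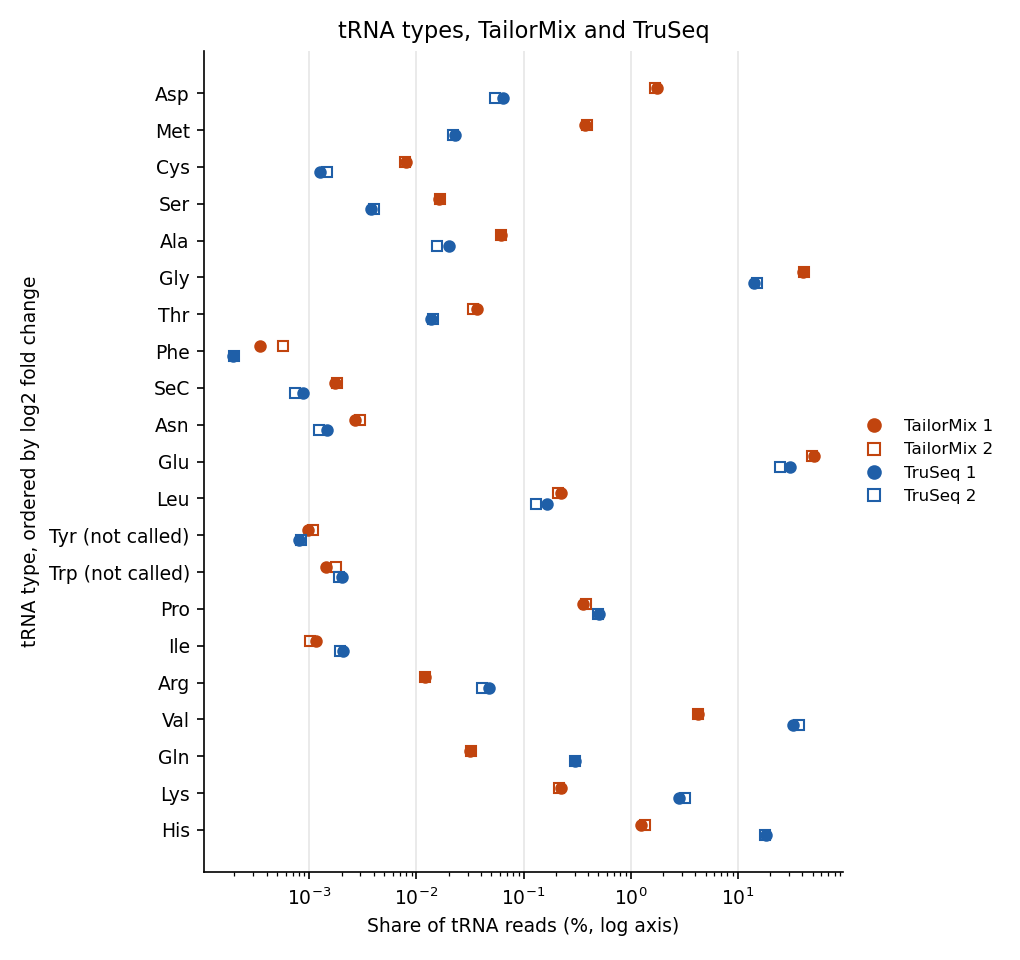
Share of tRNA reads (x axis, %, log scale) for each of the 21 tRNA types, ordered from the highest to the lowest log2 fold change of TailorMix over TruSeq, with TailorMix in red, TruSeq in blue, filled circles for replicate 1 and open squares for replicate 2. Asp and Met stand to the right in TailorMix, His, Lys, Gln and Val to the right in TruSeq, and the kits are closest for Trp and Tyr, which were not called, Tyr having the opposite sign with DESeq2.

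The fragments within a type were distributed differently as well. The leading sequence of tRNA-Gly held 39.8% and 40.2% of the Gly reads with TailorMix and 78.1% and 81.2% with TruSeq, and that of tRNA-Ala 14.4% and 14.2% against 51.4% and 46.8%. The opposite order was seen for tRNA-Val, with 51.3% in both TailorMix libraries against 37.6% and 41.3%, and for tRNA-Ser, with 50.5% and 51.6% against 26.6% and 31.8%. For tRNA-Met the leading sequence held nearly the same part of the reads with both kits, 53.0% and 52.6% against 49.7% and 50.2%. The replicates of a kit lay close to each other in each of these types. Sequences are numbered separately in each library, so it was not tested whether the leading sequence is the same RNA in both kits.

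Reads were next summed by anticodon, which splits a type into the tRNAs that read different codons. Of 46 anticodons tested, 17 (37%) were higher in TailorMix and 12 (26.1%) lower by edgeR, a split of 58.6% higher calls that became 45.2% with TMM scaling and 48.6% with DESeq2, which moved the log2 fold changes by -0.58 and -0.46. In the abundant types Gly and Val a single anticodon held nearly all reads. Gly-GCC held 99.5% of the Gly reads in both TailorMix libraries and 99.2% and 98.8% in the TruSeq libraries (log2 fold change 1.49, SE 0.06), and Val-CAC held 94.2% and 94.3% against 95.5% and 95.2% (-3.05, SE 0.21). Val-TAC was also lower in TailorMix (-3.96, SE 0.23), while Val-AAC, with 11324 and 11376 reads against 131550 and 137388, did not pass (-2.56, adjusted p = 0.0795), although it did with TMM (adjusted p = 0.0437), with DESeq2 (0.000422) and with only the 4 libraries in the fit (0.00166). Both anticodons of Gln were lower, Gln-CTG at -3.27 (SE 0.27) and Gln-TTG at -3.20 (SE 0.54). Both of Glu were higher, Glu-CTC at 0.86 (SE 0.12) and Glu-TTC at 0.77 (SE 0.09), and both of Lys lower, Lys-CTT at -3.85 (SE 0.17) and Lys-TTT at -3.10 (SE 0.21). Lys-CTT made up 88.4% and 89.1% of the Lys reads with TailorMix and 92.5% and 93.5% with TruSeq. With TMM scaling the Glu anticodons no longer passed (0.27 and 0.19, adjusted p = 0.113 and 0.10). The lesser Gly anticodons stood apart from Gly-GCC. Gly-TCC rose from 242 and 161 reads in TruSeq to 1228 and 1362 in TailorMix (3.73, SE 0.18), whereas Gly-CCC did not pass the test (0.22, adjusted p = 0.659) and was of the opposite sign with TMM (-0.37), with DESeq2 (-0.25) and without TruSeq replicate 1 (-0.11).

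Leu, Thr and Arg hid opposed or unequal movements of their anticodons. Leu-AAG had 6889 and 6517 reads with TailorMix and 2795 and 1228 with TruSeq (log2 fold change 2.81, SE 0.44), and Leu-TAG 1595 and 1576 against 562 and 474 (2.64, SE 0.49). Leu-CAG had 2393 and 2298 against 14387 and 9567 (-1.31, SE 0.23). Leu-AAG thus led the Leu reads of TailorMix (62.5% and 62.0%) and Leu-CAG those of TruSeq (77.2% and 81.1%). For tRNA-Thr, Thr-TGT was higher in TailorMix (1.71, SE 0.16) and Thr-AGT lower (-0.89, SE 0.12).

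For tRNA-Arg, Arg-CCG had 106 and 68 reads with TailorMix and 4155 and 2767 with TruSeq (log2 fold change -4.26, SE 0.36). Arg-TCT, with 378 and 390 reads against 926 and 741, did not pass the test (-0.09, adjusted p = 0.521), although it was called lower with TMM (-0.67) and DESeq2 (-0.55). Arg-CCG therefore made up 77.7% and 73.6% of the Arg reads of TruSeq and 18.0% and 11.3% of those of TailorMix. The anticodons of Thr, Arg and Ser, Leu-TAG, Gln-TTG and Gly-TCC were singled out after their values were seen.

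tRNA-Pro was steady as a type but not by anticodon, even within a kit. Pro-CGG had 762 and 2272 reads in the TailorMix libraries and 41057 and 2571 in the TruSeq libraries. Pro-TGG had 4185 and 14107 against 6103 and 36737, and Pro-AGG 12741 and 3057 against 9476 and 5452. The leading Pro anticodon was AGG in TailorMix replicate 1, CGG in TruSeq replicate 1 and TGG in both replicates numbered 2, so that the libraries of the kits overlapped for each of the 3 anticodons.

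None of the 3 passed edgeR's test with all libraries, with log2 fold changes of -2.70 (Pro-CGG), -0.33 (Pro-TGG) and 1.15 (Pro-AGG) and adjusted p from 0.124 to 0.807 in edgeR. DESeq2 called Pro-CGG lower with all libraries (-3.17, adjusted p = 0.00724). In edgeR, Pro-CGG was at 0.10 without TruSeq replicate 1 and passed without TruSeq replicate 2 (-3.60, adjusted p = 0.0187). Pro-TGG turned to 1.75 without TruSeq replicate 2 and to 0.29 without TailorMix replicate 1, and Pro-AGG to -0.25 without TailorMix replicate 1. tRNA genes of a type can share a 5′ sequence, and the lists place each sequence on a single gene, so that values by anticodon are uncertain. tRNA-Ser showed the like within TailorMix, where Ser-TGA had 449 and 59 reads and Ser-AGA 109 and 555.

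**Figure D3:**
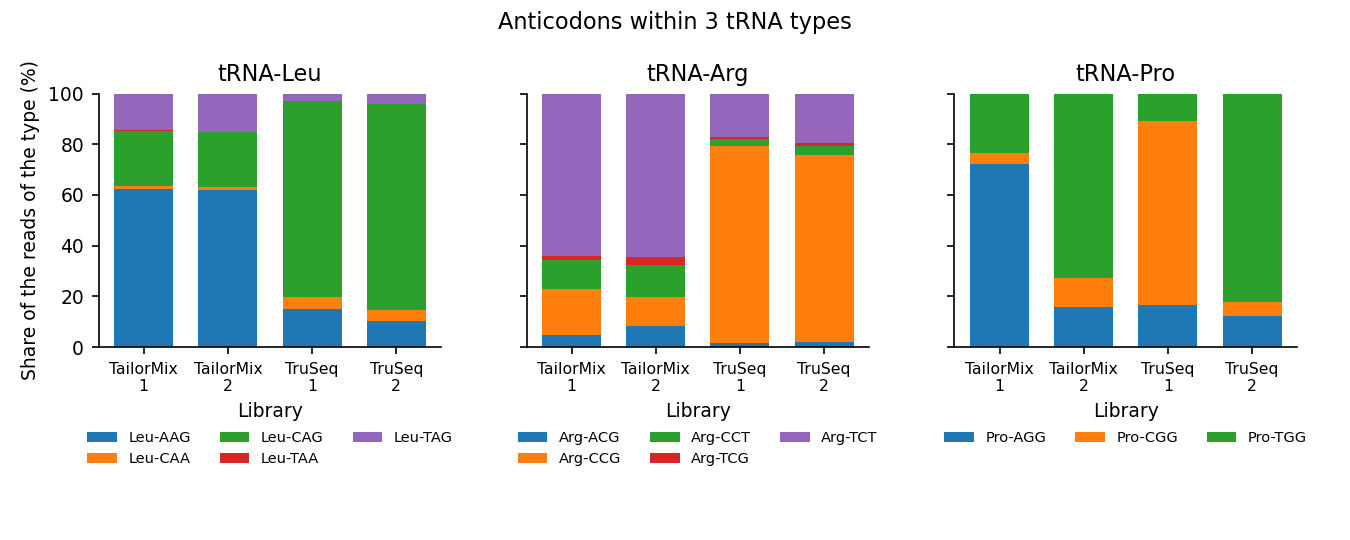
Share of the reads of tRNA-Leu, tRNA-Arg and tRNA-Pro (y axis, %) on each anticodon in each library (x axis), as stacked bars from 0 to 100%. Leu and Arg look alike within a kit and differ between kits, while the leading Pro anticodon differs between replicates 1 and 2 of the same kit.

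The miRNA profiles of the kits were related but differed in most abundant members. Of 649 miRNAs with a read in any of the 4 libraries, 303 had at least 4 counts in at least 2 of them and were tested, on the share of miRNA reads. Of these, 162 (53.5%) were higher in TailorMix and 90 (29.7%) lower by edgeR. The median log2 fold change of all tested was 1.00, and TMM scaling and DESeq2 moved the values by -0.38 and -0.46. In all, 68 miRNAs passed the filter through the TailorMix libraries alone and 38 through TruSeq alone, and such miRNAs had to differ. Of the 197 that passed with a library of each kit, 94 were higher, 60 lower and 43 not called. The lists give miRBase identifiers without names, and no table used here pairs them, so that few are named below.

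Among the 117 miRNAs with a mean of at least 50 counts, 62 were higher in TailorMix, 49 lower and 6 not called. The libraries of the kits did not overlap for 115 of these, and for 279 of all 303 tested. The change was at least 4-fold for 38 of those higher and 28 of those lower, and at least 16-fold for 21 and 7. Across the 197 miRNAs, Spearman's rho of the mean shares of the kits was 0.673, while that of replicate libraries was 0.979 in TailorMix and 0.980 in TruSeq, as a description of genes measured in the same libraries. The order of the miRNAs was closer between replicates than between kits.

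The leading miRNA of TailorMix, MIMAT0000521, had 30369 and 30803 reads (15.7% and 15.6% of miRNA reads) with this kit and 3872 and 2567 (1.1% and 0.91%) with TruSeq. Its log2 fold change was 3.96 (SE 0.10), and it ranked 20 in TruSeq. MIMAT0000142, at rank 9 in TailorMix and 239 in TruSeq, had 5495 and 5629 reads against 5 and 2 (log2 fold change 11.27, SE 0.19). A miRNA that took 2.84% and 2.86% of miRNA reads with TailorMix was thus at the edge of detection with TruSeq. A further 39 tested miRNAs had no read in either TruSeq library. The largest of these had 747 and 768 reads in TailorMix, a share at least 405-fold higher than in TruSeq when the latter is set to the floor of 3 counts per library.

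The leading miRNAs of TruSeq moved the other way. MIMAT0000208 had 681 and 731 reads (0.352% and 0.371% of miRNA reads) with TailorMix and 64882 and 56677 (18.4% and 20.1%) with TruSeq, a log2 fold change of -5.74 (SE 0.10), and ranked 39 in TailorMix. MIMAT0000648 had 360 and 367 reads (0.186% in both) against 35148 and 34567 (10.0% and 12.3%), a log2 fold change of -5.90 (SE 0.11). The mean share was thus 53.3-fold higher in TruSeq for MIMAT0000208 and 59.7-fold higher for MIMAT0000648. The 10 tested miRNAs without a TailorMix read had at most 35 reads in a TruSeq library.

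miR-16-5p (MIMAT0000527), a member of the miR-15/16 family that is abundant in blood cells and often used as a serum reference, was called higher in TailorMix. It had 9944 and 9634 reads with TailorMix and 11322 and 7921 with TruSeq, which is 5.14% and 4.89% against 3.22% and 2.81% of miRNA reads (log2 fold change 0.74, SE 0.09). The value was 0.34 with TMM scaling and 0.28 with DESeq2. Among miRNAs with a mean of at least 50 counts, those called higher had a median log2 fold change of 2.46. Those not called ran from -0.27 to 0.23. Relative to miR-16-5p, MIMAT0000521 was therefore higher and MIMAT0000208 and MIMAT0000648 lower in TailorMix. A scaling moves all miRNAs of a library alike, so that this order is no test of the scaling. The miRNA at rank 6 in both kits had a log2 fold change of 0.45, which was 0.06 with TMM scaling (adjusted p = 0.611) and -0.01 with DESeq2.

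The 10 most abundant miRNAs of TailorMix took 64.3% of its miRNA reads in the mean and 27.2% of those of TruSeq, where their ranks ran from 3 to 239. Those of TruSeq took 68.5% of its miRNA reads and 21.7% of those of TailorMix, where their ranks ran from 4 to 52. The lists of 10 shared 4 miRNAs, those of 20 shared 9 and those of 50 shared 31. Of the 10 leading in TailorMix, 8 were higher and 2 lower in that kit, and of the 10 leading in TruSeq 2 were higher and 8 lower. Each list was picked by the share in its own kit, so that such a split was partly set by the choice. Of all tested miRNAs, 53.5% were higher in TailorMix and 29.7% lower. Of the leaders in both, the one at rank 7 in TailorMix and 5 in TruSeq was lower with all libraries (log2 fold change -0.25, adjusted p = 0.00875 in edgeR) but not without TruSeq replicate 1 (-0.06) or without TailorMix replicate 1 (-0.23).

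miRNAs with at least 4 counts numbered 279 and 269 in the TailorMix libraries and 253 and 227 in the TruSeq libraries, although TruSeq had more miRNA reads. With all libraries thinned to 193468 miRNA reads the numbers were 279 and 267 against 203 and 197 (exact permutation test of the unthinned numbers, two-sided, p = 0.333, the smallest possible). The reads were also less concentrated in TailorMix, since 38 and 39 miRNAs made up 90% of its miRNA reads against 27 and 26 in TruSeq. In all, 167 miRNAs were detected in all 4 libraries.

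**Figure D4:**
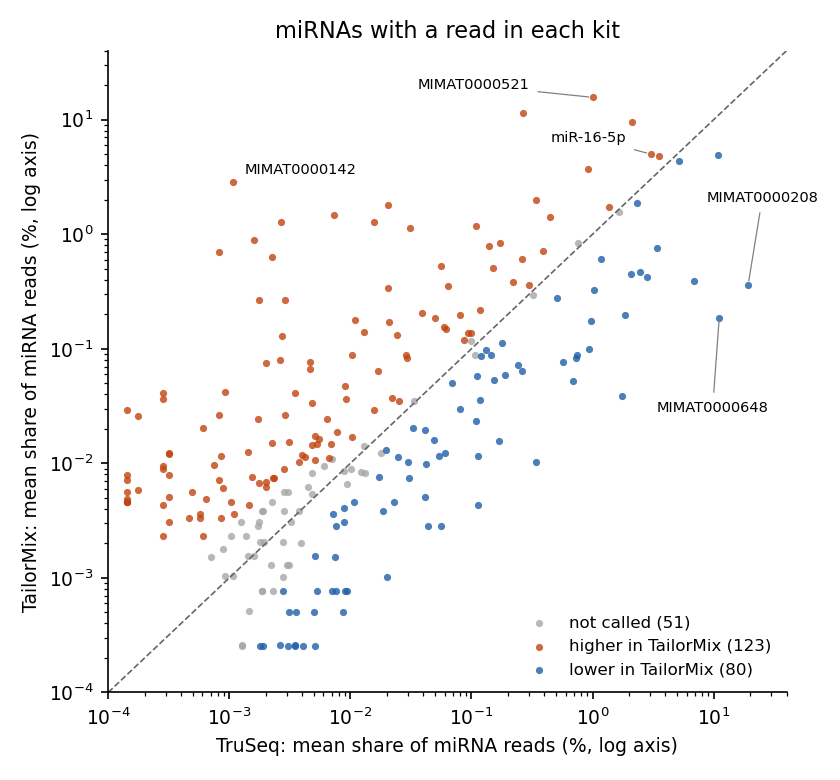
Mean share of miRNA reads with TruSeq (x axis, %, log scale) against TailorMix (y axis, %, log scale) for the 254 tested miRNAs with a read in each kit, where 123 were called higher in TailorMix (red), 80 lower (blue) and 51 not called (grey). The dashed line marks equal shares, MIMAT0000142 lies far above it, MIMAT0000208 and MIMAT0000648 far below it, and miR-16-5p close to it.

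Genes of rRNA, snRNA, snoRNA and piRNA were tested on their share of all annotated reads. Of 193 genes tested, 101 (52.3%) were higher in TailorMix and 5 (2.59%) lower by edgeR. The number higher was 44 without TruSeq replicate 1, 59 without TruSeq replicate 2, 65 without TailorMix replicate 1 and 70 without TailorMix replicate 2. Copies of a gene with nearly the same sequence were counted unevenly. For 5S rRNA the gene with most reads was n-R5s108 in TailorMix replicate 1 (671 reads), n-R5s105 in TailorMix replicate 2 (814), Gm24089 in TruSeq replicate 1 (1664) and n-R5s100 in TruSeq replicate 2 (2056). Counts of genes are therefore given here by family, in which genes with transcripts at least 90% identical over at least 80% of the shorter were summed. Of 81 families tested, 45 (55.6%) were higher in TailorMix and 9 (11.1%) lower. As with the miRNAs, some genes and families passed the filter through a single kit and had to differ. Gm22739 (56 and 59 reads against 1 and 1) and Gm23240 (13 and 31 against 1 and 0) passed through TailorMix alone. The Mir3096 family passed through TruSeq alone. The shares called include such families, and how many there were was not counted.

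The split of these calls depended on the scaling. The share of family calls that were higher was 83.3%, and 64.7% with TMM scaling, 57.1% with DESeq2 and 37.0% with the reads of the 4 classes as library size, which moved the log2 fold changes by -0.96, -1.33 and -2.31. For genes it was 95.3%, against 37.0%, 41.5% and 34.9%, with shifts of -2.29, -2.56 and -2.30. Values within the 4 classes, with their summed reads as library size, are therefore given beside those of all annotated reads below.

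The 5S rRNA family of 92 genes, part of the large ribosomal subunit, had 9353 and 9346 reads with TailorMix and 3308 and 3349 with TruSeq (log2 fold change 2.48, SE 0.27). Within the 4 classes it did not pass the test (0.17, adjusted p = 0.115 in edgeR). Among spliceosomal RNAs, the U1 family of 44 genes, which recognises the 5′ splice site, had 2971 and 3423 reads against 532 and 504 (3.62, SE 0.30). It was also higher within the 4 classes (1.30). The U2 family of 15 genes, which binds the branch point, had 770 and 812 against 217 and 231 (2.81, SE 0.32, and 0.49 within the classes).

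The minor spliceosome was represented by U12, with 80 and 60 reads against 15 and 8 (log2 fold change 3.62, SE 0.40, and 1.29 within the 4 classes), and U11, with 43 and 50 against 17 and 16 (2.49, SE 0.38). Within the 4 classes U11 did not pass (0.17, adjusted p = 0.659). U5 (1.85, SE 0.42) and U6 (1.85, SE 0.45) were called higher as a share of annotated reads, but were at -0.47 and -0.46 within the 4 classes, neither passing there. In all, 11 of the 12 snRNA families tested were higher in TailorMix as a share of annotated reads, where 55.6% of all families were. Within the 4 classes, 5 were higher and 1 lower. The 11 include Gm22220, whose reads came mostly from TailorMix replicate 1 (454 and 6 against 14 and 0). Gm22739 and Gm23240, which passed the filter through TailorMix alone, are among the 11 and among the 5. The family lower by either measure was U7, which takes part in the 3′ processing of histone messages, with 4 and 0 reads against 15 and 15 (-1.87, adjusted p = 0.0440, and -4.14 within the 4 classes). As a share of annotated reads it no longer passed without TruSeq replicate 1 (adjusted p = 0.131), without TruSeq replicate 2 (0.179) or without TailorMix replicate 2 (0.316).

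snoRNAs moved in both directions as a share of annotated reads, with a median log2 fold change of 1.08. Of 62 families, 29 were higher in TailorMix, 8 lower and 25 not called, where 55.6% of all families were higher and 11.1% lower. Within the 4 classes the balance turned, with 11 higher and 27 lower. The Gm23927 family had 366 and 195 reads with TailorMix and 9 and 2 with TruSeq (6.69, SE 0.60, and 4.35 within the classes). Rnu73b, a C/D box snoRNA, had 94 and 83 against 10 and 6 (4.47, SE 0.40, and 2.15 within the classes). Snord118 (U8), which acts in the maturation of the large ribosomal subunit RNAs, had 31 and 22 against 4 and 5 (3.53, SE 0.43), but did not pass within the classes (1.22, adjusted p = 0.0584). U3 (Rnu3a), which acts in that of the small subunit, had 41 and 42 against 29 and 30 (1.49, SE 0.34), but was at -0.83 within the 4 classes, without passing there.

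Other snoRNAs had a larger share of the reads in TruSeq. The C/D box snoRNA Snord96a had 4 and 2 reads with TailorMix and 103 and 80 with TruSeq (log2 fold change -3.89, SE 0.48, and -6.18 within the classes), and was lower under every scaling tried. Snord83b had 23 and 19 against 112 and 87 (-1.23, SE 0.37, and -3.55 within the classes), and without TailorMix replicate 2 the former value no longer passed (adjusted p = 0.0690). Scarna3a, a small RNA of Cajal bodies, had 8 and 5 against 56 and 41 (-1.87, SE 0.41, and -4.19 within the classes). Snord104, with 120 and 160 against 431 and 320, did not pass as a share of annotated reads (-0.41, adjusted p = 0.257), and was called lower with TMM (-1.41), with DESeq2 (-1.74) and within the 4 classes (-2.73).

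A pair of genes listed as snoRNA bear the names of miRNA genes and moved in opposite directions. Mir1839 had 37 and 35 reads with TailorMix and 2 and 2 with TruSeq, and the Mir3096 family 1 and 2 against 67 and 61. Their log2 fold changes were 5.11 (SE 0.47) and -4.37 (SE 0.49), and 2.81 and -6.61 within the 4 classes. Mir1839 passed the filter of 4 counts through TailorMix alone and the Mir3096 family through TruSeq alone. Each therefore had to differ in the direction seen. These genes, U5, U6, U7, U11, U12, U3, Rnu73b, Snord118, Snord96a and Scarna3a, and uc012ath.2_4344 below, were singled out after their values were seen.

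Reads annotated as piRNA came almost wholly from records of the UCSC gene uc012ath.2, which held 99.96% and 99.93% of them with TailorMix and 99.7% and 91.9% with TruSeq. The record uc012ath.2_4346 had 17961 and 16963 reads against 7960 and 6353 (log2 fold change 2.30, SE 0.26, but -0.03 within the 4 classes), and uc012ath.2_4345 had 4891 and 4970 against 1076 and 1035 (3.22, SE 0.31). Within the 4 classes the former did not pass, while the latter was higher (0.90). Of the 6 piRNA records tested, 4 were higher in TailorMix as a share of annotated reads, where 55.6% of all families were. Within the 4 classes, 1 record was higher and 1 lower. The lower was uc012ath.2_4344, with 405 and 352 reads against 1005 and 834, which did not pass as a share of annotated reads (-0.27, adjusted p = 0.385) and was lower within the 4 classes (-2.60) and with DESeq2 (-1.61). In TruSeq replicate 2 a single sequence of 732 reads was listed for another record, uc029tqd.1, which had no read in the other 3 libraries.

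**Figure D5:**
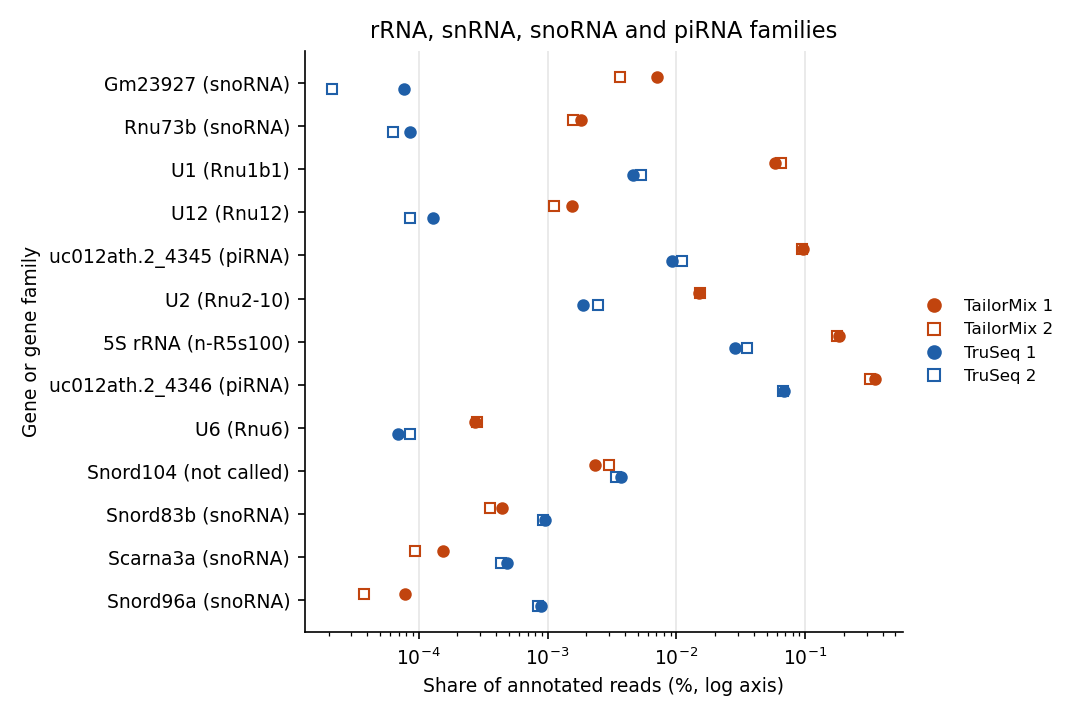
Share of annotated reads (x axis, %, log scale) of 13 genes or gene families of rRNA, snRNA, snoRNA and piRNA, ordered from the highest to the lowest log2 fold change, with TailorMix in red, TruSeq in blue, filled circles for replicate 1 and open squares for replicate 2. Gm23927 and Rnu73b lie to the right in TailorMix and Snord96a to the right in TruSeq, while Snord104, which was not called, is close, and U6 and uc012ath.2_4346 are of the opposite sign (-0.46 and -0.03) within the 4 classes.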

How the data were processed

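The counts analysed here were deposited by the authors as 2 lists per library, of reads per miRNA and of reads per distinct sequence of the other classes. Before deposit the authors trimmed adaptors (Cutadapt 1.8.1), filtered on length and quality, mapped with Bowtie 1.1.2 without mismatches to GRCm38 and annotated by position. The deposited counts are not normalized, and reads outside the annotations are not in the lists. Groups came from the kit in the labels. Counts were summed by class, tRNA type, anticodon, gene and gene family with Python 3.11.15 and pandas 2.3.3. Differences were tested with edgeR 4.0.16 (glmQLFit, glmQLFTest, Benjamini-Hochberg adjustment) in R 4.3.3, with all 6 libraries in the fit and total miRNA, tRNA or annotated reads as library size. Features needed at least 4 counts in at least 2 of the 4 libraries, except tRNA types, which were not filtered. Single values were compared by an exact permutation test. DESeq2 1.42.0, TMM and other choices were alternatives. The scripts were tested on simulated data.

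Features to name were taken from miR-16-5p, the leading miRNAs, every tRNA type, anticodons with at least 0.1% of tRNA reads in a kit, and the 3 leading genes of each other class with the 5 largest changes in each direction at a mean of at least 50 counts, besides those said to be singled out. Members and lists were chosen with earlier results of these data known. The files do not pair miRBase identifiers with names, so the planned lists of miRNA families and of tissue markers were not used, and the serum label was not checked against markers. Of 655 Ensembl identifiers in the series, 640 matched GENCODE M21. Gene families were added after the data were seen. No molecular identifiers were counted, and intervals and floors (3 counts) reflect counting error alone.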

Additional observations from a re-analysis of the deposited data

Results flagged for a closer look

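Reads listed under several classes at once carry no gene and were used in no comparison. They numbered 61 in TailorMix replicate 1, 42 in TailorMix replicate 2 and 6 in TruSeq replicate 1, above the floor of 3 counts, against 2 in TruSeq replicate 2. They were flagged because they lie outside the comparisons above.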

How the results depend on the processing

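Leaving out sequences and miRNAs with under 4 counts moved the difference in share of annotated reads (TailorMix minus TruSeq) to -1.18 percentage points for tRNA, 0.139 for rRNA, 0.0636 for snRNA, 0.0138 for snoRNA and 0.227 for piRNA. Thinning raised the difference in detected miRNAs to 73. A minimum of 20 counts lowered the higher calls to 97 miRNAs, 67 genes and 26 families, since fewer were tested. tRNA types called higher were 7 with DESeq2. For genes, the calls higher and lower were 17 and 29 with TMM, 27 and 38 with DESeq2, 15 and 28 with the total of the 4 classes, and 45 and 9 by family. For families they were 28 and 21 with DESeq2, 17 and 29 with the total of the 4 classes, and 18 were lower with TMM. Leaving out a library gave 44 to 70 genes higher and 3 to 4 lower, the fewest higher without TruSeq replicate 1 (59 without TruSeq replicate 2 and 65 without TailorMix replicate 1). The remaining library of that kit is then assumed to vary like the other kits.

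The log2 fold change reversed with DESeq2 for Leu (-0.027), Tyr (-0.26) and the miRNA at rank 6 in both kits (-0.0053), for Gly-CCC with TMM (-0.37) and DESeq2 (-0.25), and for U5, U6 and U3 with the total of the 4 classes (-0.47, -0.46 and -0.83). It reversed for uc012ath.2_4346 as a gene (-0.025 with TMM, -0.28 with DESeq2, -0.030 with the class total, which was -0.030 by family) and for uc012ath.2_4347 (-0.047, -0.31, -0.057 and -0.057). Without single libraries it ran from -0.11 to 0.63 for Gly-CCC, -0.25 to 1.85 for Pro-AGG, -3.66 to 0.099 for Pro-CGG, -1.42 to 1.75 for Pro-TGG, -0.27 to 2.03 for Ser-AGA and -2.56 to 3.81 for n-R5s100 as a single gene, which was at 1.13 with the replicate block. The cause was not tested.

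Library titles give serum numbers 1 and 2 for either kit, without stating whether equal numbers mean the same serum or mouse, so a pairing is not established. Differences between replicates 1 and 2 correlated by 0.118 between the kits over 21 tRNA types and by 0.206 over 113 miRNAs. With the replicate block, 160 miRNAs were higher and 87 lower, 12 and 7 tRNA types, 17 and 13 anticodons, 94 and 3 genes, and 42 and 8 families.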

Other observations

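A few genes were carried by a single library. n-R5s205 had 1 and 382 reads in the TailorMix libraries, all 382 in a single sequence, and none with TruSeq. Gm22220, listed as snRNA, had 454 and 6 reads with TailorMix, 447 of them in a single sequence of replicate 1, against 14 and 0 with TruSeq. It was called higher in TailorMix with all libraries (log2 fold change 6.11, adjusted p = 0.00213 in edgeR), but was at 0.79 (adjusted p = 0.365) without TailorMix replicate 1. The snoRNA gene ENSMUSG00000064807 had 2 and 274 reads with TailorMix, 270 of them in a single sequence of replicate 2.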
